A study of Mus musculus with 3 samples.

Results

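The Robo and Slit genes are 6 of the 21883 protein-coding genes in the mouse gene table used here. They are the receptor genes Robo1, Robo2 and Robo3 and the ligand genes Slit1, Slit2 and Slit3. A peak belonged to a gene when at least 1 bp of it lay within the gene's span or 5 kb on either side. This gave 165 of the 105674 ATRX peaks in neurons labelled MICAL1-FL and 121 of the 112153 in control neurons labelled mCherry. The genes were selected on the numbers and overlaps of these same peaks, so numbers, positions and overlaps are given as a description, with no test. In both conditions primary neurons were taken from embryos of C57BL6/J mice, aged E15.5 to E17.5, and received lentivirus on the fifth day in culture (day 5). ATRX was immunoprecipitated at day 14 in vitro, and input DNA served as background. The sources used here do not give the promoter driving each insert, the number of embryos or the share of other cells in the cultures. Peak lists carry no expression with which to check the cell type. Each condition had a single ChIP library (n = 1), which leaves every difference without a replicate check. Peaks of the MICAL1-FL list are named TBC_M2 in the file, so each MICAL1-FL value rests on the sample label.

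Slits are large secreted proteins that repel growing axons and also shape dendrites and cell migration. They bind Robo receptors, which are transmembrane proteins of the immunoglobulin superfamily and signal to actin through adaptors and GTPase regulators. In vertebrate nerve cord and forebrain, Robo1 and Robo2 are the main Slit receptors, while mammalian Robo3 governs midline crossing of commissural axons and binds the ligand Nell2. ATRX is a chromatin remodeller known to place histone H3.3 at repeats, and MICAL1 is a monooxygenase that oxidises actin. The comparison asks whether ATRX sits at different places in neurons given MICAL1-FL.

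A peak covered an annotated start at Robo1, Robo2, Slit2 and Slit3, and these stretches are shown because they are where the data meet a known promoter. RefSeq (GRCm38.p6) lists 7 promoter windows for 5 of the 6 genes, each running from 250 bp before a start to 50 bp after it, and none was matched for Slit1. The 250 bases before each covered start are printed 5′ to 3′ on the gene's strand, with the bases inside an ATRX peak in capitals. At Robo1 and Robo2, where the covered start lies inside the gene, the peak came from the MICAL1-FL list. At Slit2 and Slit3 it came from the control list.
Robo1, chr16:72662899-72663148, plus strand: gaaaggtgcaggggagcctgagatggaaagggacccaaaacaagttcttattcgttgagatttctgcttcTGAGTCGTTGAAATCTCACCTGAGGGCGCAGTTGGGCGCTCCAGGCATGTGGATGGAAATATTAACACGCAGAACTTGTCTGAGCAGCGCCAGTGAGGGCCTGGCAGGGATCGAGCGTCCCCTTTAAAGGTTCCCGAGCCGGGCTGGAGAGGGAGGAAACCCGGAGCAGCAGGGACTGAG
Robo2, chr16:74411826-74412075, minus strand: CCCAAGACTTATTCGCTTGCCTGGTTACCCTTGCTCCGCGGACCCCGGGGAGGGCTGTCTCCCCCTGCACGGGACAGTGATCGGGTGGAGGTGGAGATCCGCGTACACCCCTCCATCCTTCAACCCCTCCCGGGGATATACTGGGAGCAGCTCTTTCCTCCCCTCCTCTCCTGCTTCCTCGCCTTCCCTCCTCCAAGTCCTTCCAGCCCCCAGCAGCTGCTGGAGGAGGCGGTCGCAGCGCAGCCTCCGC
Slit2, chr5:47982905-47983154, plus strand: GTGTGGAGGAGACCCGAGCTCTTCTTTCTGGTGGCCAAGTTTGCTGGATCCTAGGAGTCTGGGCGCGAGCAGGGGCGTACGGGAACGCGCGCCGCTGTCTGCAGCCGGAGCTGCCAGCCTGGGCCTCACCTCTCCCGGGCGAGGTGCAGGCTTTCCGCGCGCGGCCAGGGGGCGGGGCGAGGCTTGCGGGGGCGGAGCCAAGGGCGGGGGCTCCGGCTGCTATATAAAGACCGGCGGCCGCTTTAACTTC
Slit3, chr11:35121206-35121455, plus strand: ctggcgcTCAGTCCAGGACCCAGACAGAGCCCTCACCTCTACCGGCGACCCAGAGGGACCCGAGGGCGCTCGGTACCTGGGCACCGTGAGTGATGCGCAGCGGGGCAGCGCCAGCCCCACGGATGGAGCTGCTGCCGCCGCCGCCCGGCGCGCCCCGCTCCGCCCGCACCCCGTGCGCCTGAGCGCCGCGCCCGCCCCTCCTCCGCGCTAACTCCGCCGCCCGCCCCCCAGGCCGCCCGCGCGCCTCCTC
Over the full 300 bp windows, G and C made up 57.0% at Robo1, 65.0% at Robo2, 68.0% at Slit2 and 78.3% at Slit3, where the median of 32841 windows of all genes was 52.7%. The CG dinucleotide occurred 15, 17, 30 and 41 times in these windows, against a median of 7. All these windows held GGGG on either strand, as did 86.4% of all windows. Only the Slit2 window among the 7 held TATAAA on either strand, a motif found in 13.6% of all windows. The windows without a peak had 63.3% G and C at Robo3 and 45% and 53.3% at Robo2, with CG 17, 5 and 9 times. The Robo3 window without a peak was thus richer in both than the covered Robo1 window. These are counts of letters only.

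All 6 genes had at least 1 peak in both lists. A MICAL1-FL peak was found at 61.2% and a control peak at 64.0% of all protein-coding genes, and at 97.7% and 98.0% of those of 100 kb or more. Peaks of the MICAL1-FL list outnumbered those of the control list at 5 of the 6 genes (28.7% of all protein-coding genes, and 38.8% of those of 100 kb or more, had more MICAL1-FL peaks). Together the genes had 165 MICAL1-FL and 121 control peaks, a ratio of 1.36. Its 95% exact binomial interval, which covers counting error only, ran from 1.07 to 1.74. The same ratio was 0.926 over all protein-coding genes and 0.946 over the 2428 genes of 100 kb or more. The receptors had 103 and 72 peaks (ratio 1.43, 1.05 to 1.96) and the ligands 62 and 49 (ratio 1.27, 0.856 to 1.88). Since these counts chose the genes, the intervals describe counting error and test nothing.

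**Figure D1:**
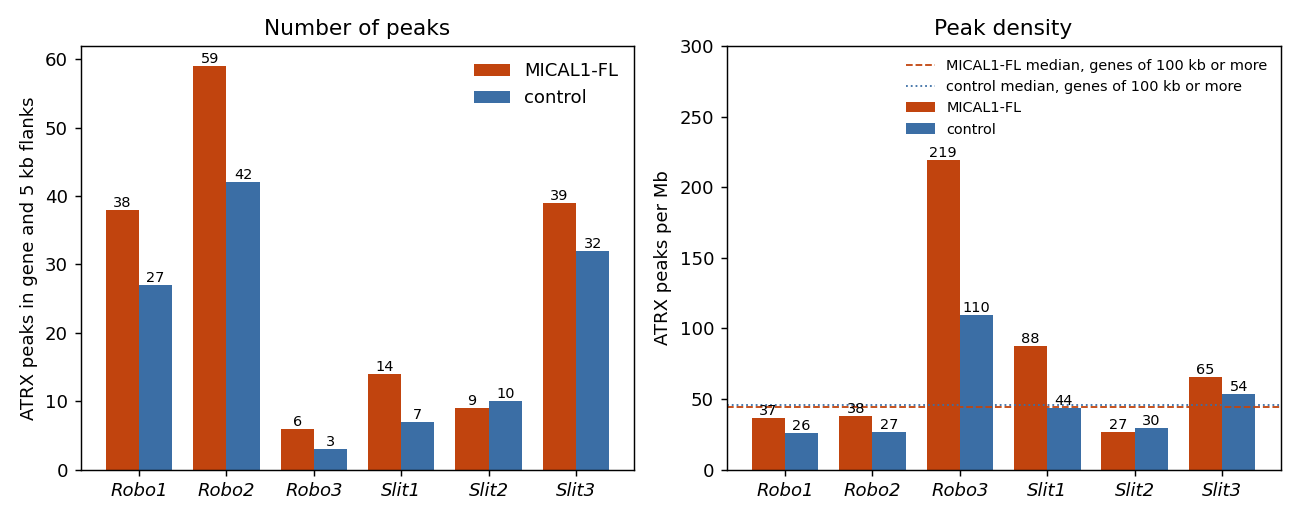
ATRX peaks at each gene, as a number (left) and per Mb of gene and flanks (right), in the MICAL1-FL and control libraries, with 1 library each and no error bars. Dashed and dotted lines are the medians of genes of 100 kb or more, 44.7 and 45.7 per Mb. The MICAL1-FL bar is the higher one at every gene but Slit2, and Robo3, the shortest gene, has the fewest peaks and the highest density.

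The DNA within 1 Mb of the genes and their flanks, with peaks of the 6 genes left out and each other peak counted once, held 406 MICAL1-FL and 452 control peaks. This is a ratio of 0.898 (0.784 to 1.03). The ratio was not alike around each gene, but the interval for counting error included 1 around each of them. Around Robo2 there were 82 MICAL1-FL and 69 control peaks (ratio 1.19) and around Robo1 66 and 65, and the DNA between these neighbours, part of both counts, held 42 and 34 (ratio 1.24). Around Slit1 there were 72 and 94 (ratio 0.766, 0.556 to 1.05), and around Slit3 106 and 126 (ratio 0.841, 0.644 to 1.10). At Slit1 and Slit3 the surroundings thus had fewer MICAL1-FL peaks while the gene had more. The intervals of the Slit1 and Slit3 genes themselves also included 1. Whole chromosomes lay closer together, with ratios from 0.914 on chromosome 11 to 1.01 on chromosome 16, which carries Robo1 and Robo2.

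The density of peaks separated the genes more than the condition did. Robo3, with only 27.4 kb of gene and flank, had 219 MICAL1-FL and 110 control peaks per Mb. Slit3 had 65.3 and 53.6 per Mb and Slit1 87.8 and 43.9. Robo2 (37.7 and 26.8), Robo1 (36.9 and 26.2) and Slit2 (26.8 and 29.7) were the sparsest. Among genes of 100 kb or more the median was 44.7 MICAL1-FL and 45.7 control peaks per Mb. The order of genes was therefore not the same in both lists. Slit1 ranked above Slit3 in the MICAL1-FL list and below it in the control list. Slit2 came last in the MICAL1-FL list but above Robo2 and Robo1 in the control list. These ranks rest on few peaks (Slit1 14 and 7, Slit2 9 and 10), and the ratio interval of each gene included 1. Of the long genes, 92.9% were less dense than Slit1 in the MICAL1-FL list and 47.1% in the control list. For Robo1 these shares were 38.2% and 22.4%, and for Robo2 39.1% and 23.2%. In both lists, then, the large receptors lay below the middle of long genes, and further below it in the control list.

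**Figure D2:**
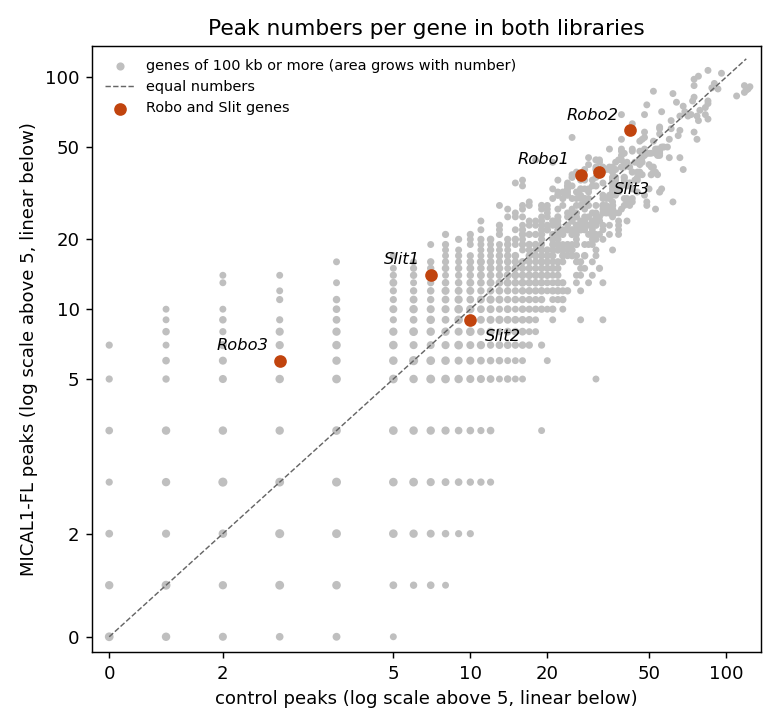
Number of MICAL1-FL peaks (vertical) against control peaks (horizontal) per gene, for genes of 100 kb or more (grey) and the 6 Robo and Slit genes (orange); both axes are linear up to 5 and logarithmic above. All orange points but Slit2 lie above the line of equal numbers, and grey points surround each of them.

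Robo1, a receptor that guides callosal and thalamocortical axons, had 38 MICAL1-FL and 27 control peaks over 1020 kb (ratio 1.41, 0.837 to 2.40). The difference lay in the middle of the gene. Of 3 equal parts of the gene along transcription, the first held 6 MICAL1-FL and 4 control summits, the middle 20 and 5, and the last 12 and 17, with 1 control summit before the gene. Nearest the gene's first base were a MICAL1-FL summit at 0.848 kb (6 fragments) and that control summit at -4.83 kb (5 fragments). No control peak lay on chromosome 16 from 72563798 to 72713266, a stretch of 149 kb in which 12 MICAL1-FL peaks fell, from 72584287 to 72700840. A run of at least 12 MICAL1-FL peaks between neighbouring control peaks was found in 0.329% of genes of 100 kb or more and in 1.77% of the 226 genes of 500 kb or more. This stretch was picked as the longest such run after the values were seen. It holds the annotated start printed above, where a MICAL1-FL peak (72662969 to 72663213, fold 1.86 over background, 4 ChIP fragments deep) had its summit at -134 bp from the start. This start is internal: the summit lay 635 kb into the gene, at 62.3% of its length. The nearest control summit lay 50.4 kb downstream of that start. The same stretch carried the strongest Robo1 peak of either list, a MICAL1-FL peak at 72616617 to 72616949 with fold 3.82, 9 fragments and an authors' p of 7.81e-06 (q of 0.139). The strongest control peak, at 72923883 to 72924215, had fold 2.81, 7 fragments and a p of 0.000669. The fold, p and q given for a peak come from the authors' caller and serve here to rank peaks within a list.

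Robo2, the partner receptor with roles in retinal and spinal axon paths, had 59 MICAL1-FL and 42 control peaks over 1555 kb (ratio 1.405, 0.930 to 2.14). Its peaks were spread along the gene, with 16 MICAL1-FL and 14 control summits in the first of 3 equal parts, 21 and 11 in the middle and 22 and 17 in the last. The longest run of MICAL1-FL peaks with no control peak between them was 7, in 124 kb from 74418228 to 74542302. Runs of at least 7 were found in 5.56% of genes of 100 kb or more, and genes as long as Robo2 were not taken apart. RefSeq lists 3 starts for Robo2. At the most downstream of these 3, printed above, 2 MICAL1-FL peaks lay within 1 kb: one over the start (74411659 to 74412083, fold 2.06, 5 fragments) and one 539 bp after it by its summit (74411075 to 74411338, fold 2.29, 5 fragments). The nearest control summit was at -6287 bp from that start. The other starts had no summit of either list within 5 kb. The strongest peak of the MICAL1-FL list was at 74316030 to 74316382 (fold 3.08, 8 fragments) and that of the control list at 74083348 to 74083638 (fold 3.43, 8 fragments), and the control peak overlapped a MICAL1-FL peak.

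Robo3, the receptor of commissural neurons, had 6 MICAL1-FL and 3 control peaks in its 17.4 kb and flanks (ratio 2.00, 0.427 to 12.4). All 6 MICAL1-FL peaks were 5 or 6 fragments deep, as were the 3 control peaks. No MICAL1-FL peak overlapped a control peak, as at most protein-coding genes (14.9% had such a pair). Of the MICAL1-FL summits 4 lay in the last of 3 equal parts of the gene, in peaks between 37417789 and 37421574 on chromosome 9, 1 in the middle and 1 upstream of the gene. The control summits lay 607 bp after the RefSeq start (37432454 to 37432757, fold 2.29), in the middle of the gene (37427251 to 37427559, fold 2.67) and beyond its end, inside the neighbouring gene Robo4 (37411033 to 37411310, fold 2.39). Robo4, a receptor of endothelial cells, lies so close that 2 of the MICAL1-FL peaks and this control peak count for both genes.

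Among the ligands, Slit1, which is largely restricted to the nervous system, had 14 MICAL1-FL and 7 control peaks over 149 kb (ratio 2.00, 0.755 to 5.86). Of genes with 20 or more peaks, 4.09% had a ratio at least as high. With 21 peaks Slit1 is near the lower edge of that set, where counting error spreads ratios most, and genes of like count were not compared. The control peaks crowded into one side of the gene. All 7 lay between 41691558 and 41743891 on chromosome 19, while from the lower-coordinate flank up to 41691557, over 98.7 kb, there were 7 MICAL1-FL summits and no control peak. A run of 7 or more was found in 5.56% of genes of 100 kb or more. The Slit1 run was picked as the longest in the gene, so this share is a description and tests nothing. The strand of Slit1 could not be read from the promoter table, so its start and end are not told apart here. At its lower-coordinate side 2 of the MICAL1-FL peaks also lie within 5 kb of the neighbouring gene Lcor. The deepest peaks had 7 fragments in both lists. By p, the strongest MICAL1-FL peak was at 41617968 to 41618245 (fold 2.78) and the strongest control peak at 41734378 to 41735213 (fold 2.59).

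Slit2, a repellent for many axon tracts, had 9 MICAL1-FL and 10 control peaks over 326 kb (ratio 0.900, 0.324 to 2.46). With p of 0.01 or less the order turned, to 8 MICAL1-FL and 6 control peaks. Peaks of both lists gathered at its start. Within 5 kb of the RefSeq start the MICAL1-FL list had 4 of its 9 peaks and the control list 4 of its 10. At least 3 summits of each list within 5 kb of a start occurred at 0.532% of genes with a promoter window, a rule set after the Slit2 start had been seen. In MICAL1-FL neurons the summits lay at -2.27, 0.991, 2.24 and 2.86 kb from the start. In control neurons they lay at 0.589, 1.37, 2.45 and 3.77 kb. The control peak that covers the start (47982764 to 47983866, 1103 bp wide) was 8 fragments deep, with a fold of 1.91 over a background of 3.70 fragments, the highest of all peaks at these genes in either list. The strongest Slit2 peaks of the lists lay side by side just after the start and overlapped: 47984029 to 47984469 in MICAL1-FL neurons (fold 3.06, 7 fragments) and 47984301 to 47984666 in control neurons (fold 3.51, 9 fragments).

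Slit3, known from diaphragm and vascular development as well as axon guidance, had 39 MICAL1-FL and 32 control peaks over 587 kb (ratio 1.22, 0.744 to 2.01). Along transcription, 3 equal parts of the gene held 14 MICAL1-FL and 15 control, 14 and 8, and 10 and 8 summits. Its start carried a control peak, 35121213 to 35121711, with fold 3.43 and 8 fragments, which shared the lowest p of the control peaks at Slit3 (5.03e-05, q of 0.705) with another at 35336314 to 35336684. The nearest MICAL1-FL peak, 35120317 to 35120561, was 4 fragments deep with fold 1.91 and had its summit at -967 bp from the start. None of the peaks over the 4 printed starts overlapped a peak of the other list. The nearest peak of the other list was 50054 bp away at Robo1, 5768 bp at Robo2, 163 bp at Slit2 and 652 bp at Slit3. Over the full lists 7.30% of MICAL1-FL and 6.89% of control peaks overlapped one of the other list. A peak on a promoter window was found at 11.7% of genes in the MICAL1-FL list and 11.2% in the control list, where the counts here were 2 of 5 in both, at different genes.

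**Figure D3:**
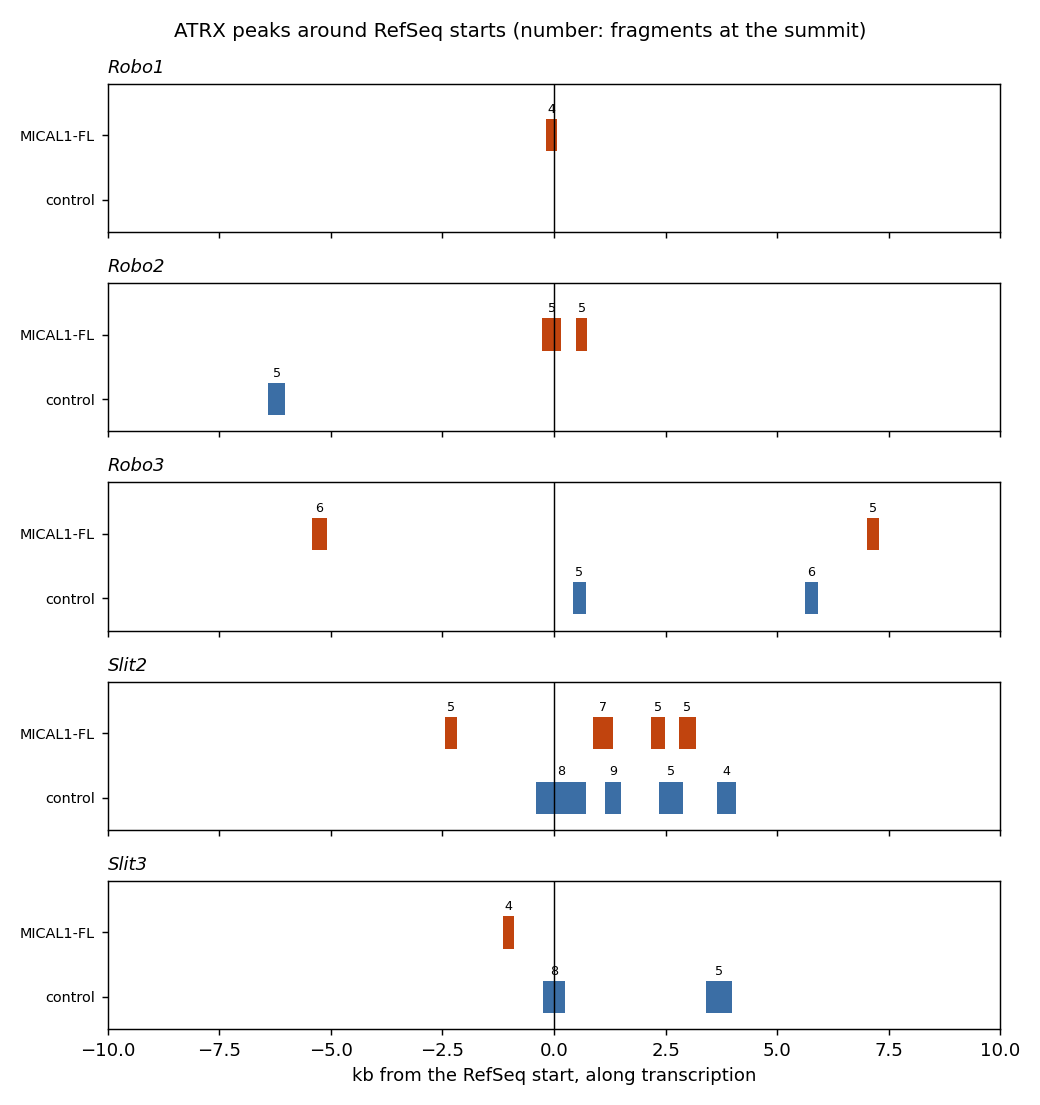
ATRX peaks within 10 kb of RefSeq starts, by distance along transcription, with MICAL1-FL above and control below in each panel and the number of ChIP fragments at the summit over each peak. Starts with a summit within 5 kb are shown, so Robo2 appears once. At Slit2 both lists have 4 peaks near the start. At the Robo1 start shown, which lies inside the gene, only the MICAL1-FL list has one.

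Slit2 and Slit3 each carry a copy of the gene for miR-218, a neuronal microRNA known to repress Robo1 and Robo2, and for this reason its place is given. Both hairpins yield the same mature 5p strand, shown with its seed (bases 2 to 8) in capitals, from RefSeq.
miR-218-5p (chr5:48223966-48223986 in Slit2, plus strand; chr11:35616840-35616860 in Slit3, plus strand): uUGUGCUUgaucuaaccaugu
A control peak (35616524 to 35617047, fold 2.67, 6 fragments) covered the whole hairpin in Slit3, and the nearest MICAL1-FL peak was 9.09 kb away (35626015 to 35626419, fold 3.08). That MICAL1-FL peak was the strongest of its list at Slit3. The control peak was the last of 4 control peaks from 35611521 on, a run with no MICAL1-FL peak among them, picked after the values were seen. At the hairpin in Slit2 the nearest peak was 31.4 kb away in the MICAL1-FL list and 8.89 kb away in the control list.

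**Figure D4:**
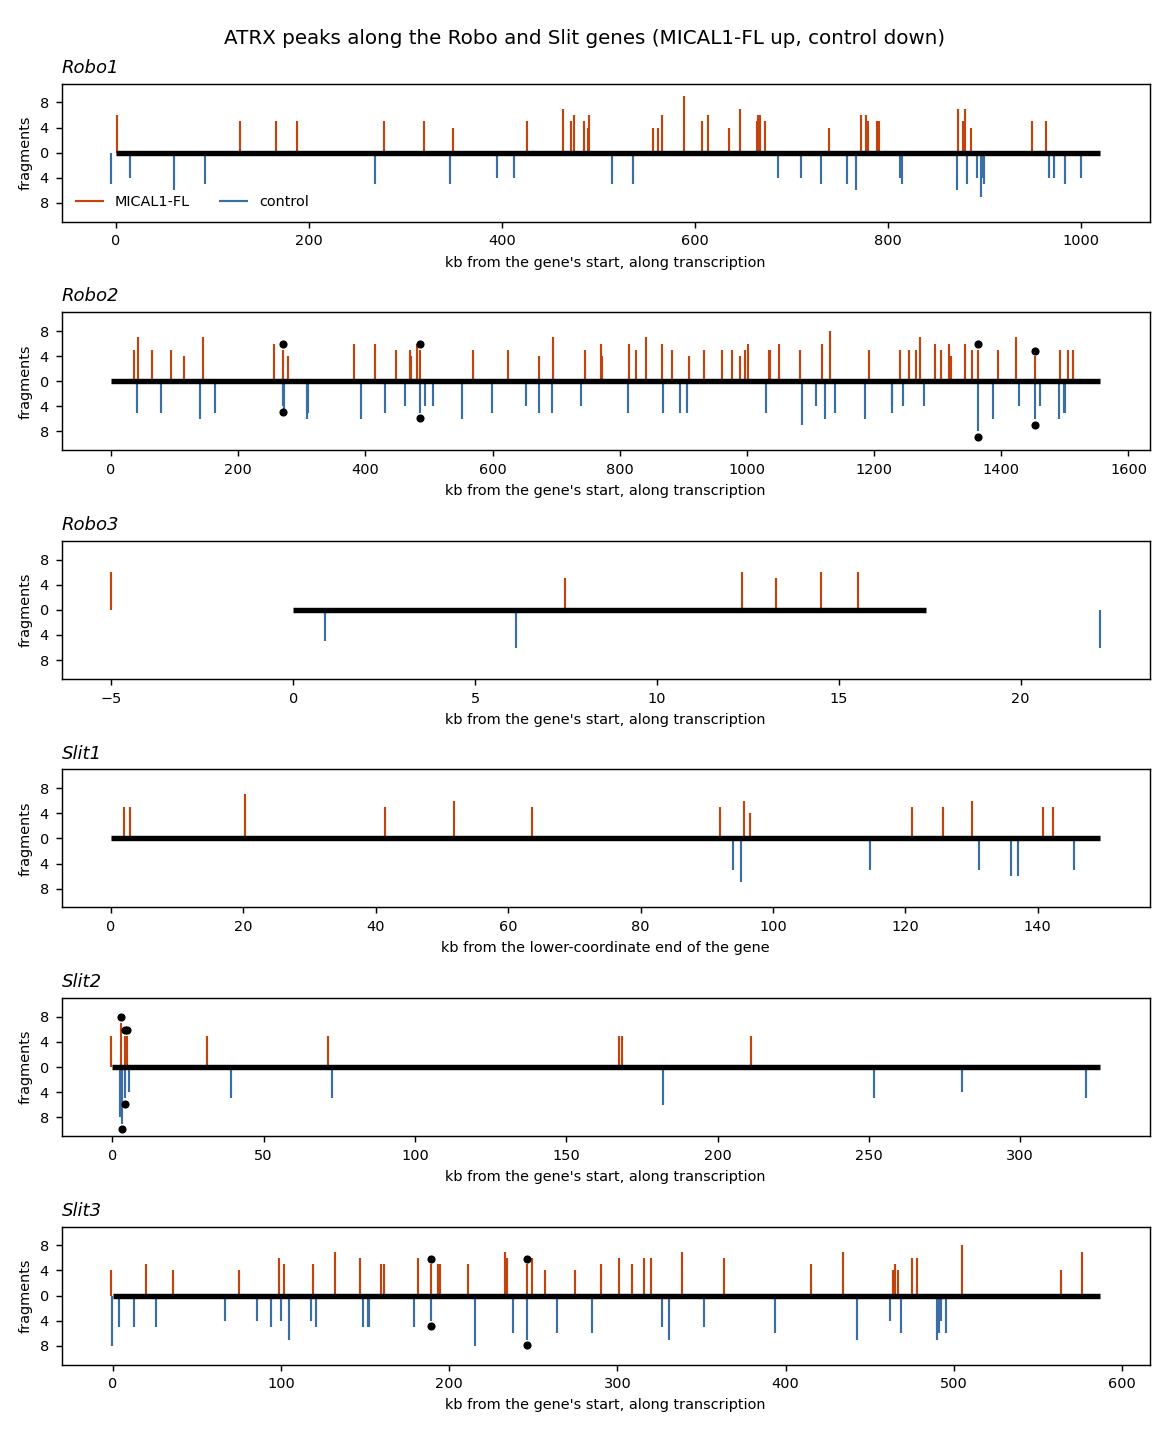
ATRX peaks along each gene, drawn at their summits with a height equal to the ChIP fragments there, MICAL1-FL upward and control downward; the black bar is the gene and black dots mark peaks that overlap one of the other list. Robo1 shows the run of 12 MICAL1-FL peaks without a control peak, Slit1 the side free of control peaks, and Slit2 the group of peaks of both lists at the start.

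Few peaks of the lists coincided. An overlap of at least 1 bp with the control list was found for 9 of 165 MICAL1-FL peaks (5.45%, 2.52 to 10.1), and with the MICAL1-FL list for 8 of 121 control peaks (6.61%, 2.90 to 12.6). Over all peaks within 5 kb of protein-coding genes these shares were 8.69% and 8.05%, and over the full lists 7.30% and 6.89%. The pairs lay at Robo2 (4), Slit2 (3 pairs, made by 3 MICAL1-FL and 2 control peaks) and Slit3 (2), while Robo1, Robo3 and Slit1 had none. At least 1 such pair was found at 14.9% of protein-coding genes and at 51.2% of genes of 100 kb or more, which 5 of these 6 are. At Robo2 the pair with the closest summits, 69 bp apart, was 75177513 to 75177765 in MICAL1-FL neurons and 75177408 to 75177778 in control neurons, with 5 and 4 fragments. At Slit3 a MICAL1-FL peak at 35367215 to 35367679 and a control peak at 35367357 to 35367662 shared 306 bp, with 5 and 7 fragments. Of the 9 MICAL1-FL peaks in pairs, 7 had the median depth of 5 fragments. At Robo1 the median MICAL1-FL peak was 20.9 kb from the nearest control peak, and the median control peak 13.0 kb from the nearest MICAL1-FL peak. The Robo1 values include the run of MICAL1-FL peaks picked above, so they are not a separate observation. At Robo2, of similar density, these distances were 9.69 and 5.83 kb, and over peaks in all protein-coding genes 5.03 and 5.44 kb. All protein-coding genes together were denser, with 43.3 MICAL1-FL and 46.8 control peaks per Mb against 36.9 and 26.2 at Robo1, and denser lists give shorter distances.

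Peaks at these genes were shallow, and no peak of either list had a q of 0.05 or less (0.380% of all MICAL1-FL and 0.416% of all control peaks had). The smallest authors' q at these genes was 0.139 in the MICAL1-FL list and 0.395 in the control list. Depth was recovered from the authors' fold and p. It ran from 4 to 9 fragments in both lists, with a median of 5, over a background that was at its lowest value, 1.62 fragments, at 124 of 165 MICAL1-FL and 87 of 121 control peaks (69.2% and 63.3% of all peaks of the lists). The lists differed in their shallowest peaks, with 25 MICAL1-FL peaks (15.2%) and 32 control peaks (26.4%) at 4 fragments, where 20.7% and 18.3% of all peaks had this depth. Peaks of 6 or more fragments numbered 60 and 37, which is 36.4% and 30.6%, against 39.2% and 42.9% of all peaks. At Robo1 there were 14 and 4 such peaks (36.8% and 14.8% of its peaks) and at Robo2 20 and 11 (33.9% and 26.2%). At Slit3 there were 17 and 14, near equal as shares (43.6% and 43.8%), and at Robo3 both shares were 66.7%. The share was higher in the control list at Slit1 (28.6% and 42.9%) and at Slit2 (11.1% and 30%). With peaks of p of 0.01 or less alone, the genes had 128 MICAL1-FL and 72 control peaks, a ratio of 1.78 (1.32 to 2.41), where all protein-coding genes had 0.924. At that threshold Robo1 had 29 MICAL1-FL and 14 control peaks, Robo2 44 and 23, Robo3 6 and 3, Slit1 12 and 4, Slit2 8 and 6 and Slit3 29 and 22. With p of 0.001 or less, 15 and 10 peaks were left, while the ratio over all protein-coding genes was 0.799. Slit3 then had 4 MICAL1-FL and 6 control peaks (ratio 0.667, 0.138 to 2.81).

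**Figure D5:**
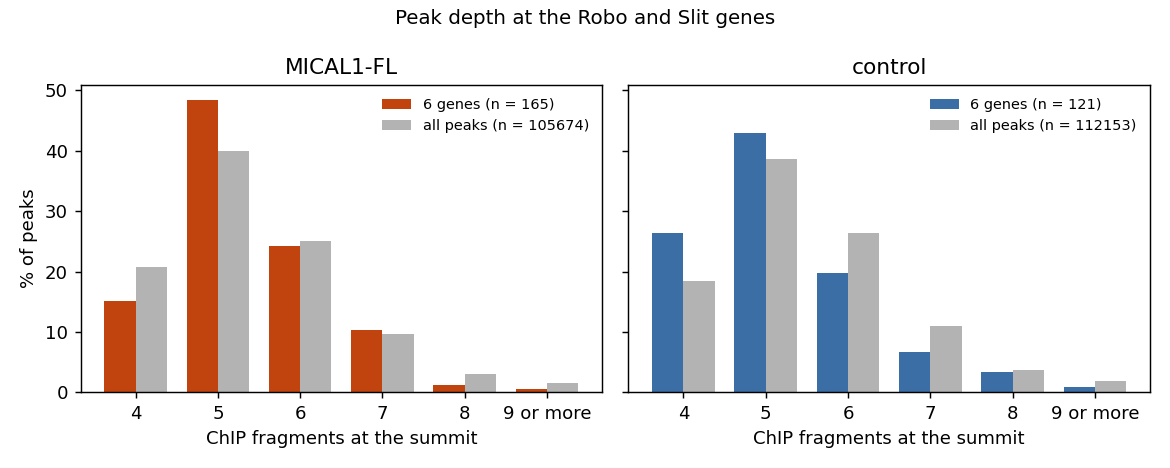
Share of peaks by ChIP fragments at the summit, at the 6 genes (coloured) and over the whole list (grey), for MICAL1-FL (left) and control (right); peaks whose depth could not be recovered count in n and are not drawn. At 4 fragments the genes lie below the whole list in MICAL1-FL neurons (15.2% and 20.7%) and above it in control neurons (26.4% and 18.3%).

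Genes that act with Slits and Robos did not share the direction of the 6 genes as a list. All 33 genes of the pathway list were found, with 213 MICAL1-FL and 235 control peaks, a ratio of 0.906 (0.749 to 1.096). More MICAL1-FL peaks were present at 11 genes, more control peaks at 20 and equal numbers at 2, and the median gene had 3 and 4 peaks. Over all protein-coding genes the ratio was 0.926, near that of the list. Of all these genes, 28.7% had more MICAL1-FL peaks, 35.1% more control peaks and 36.1% equal numbers, with a median of 1 peak in each list. The contrast with the 6 genes is not a test, since their counts chose them. Among the GTPase-activating proteins that bind Robo tails, Srgap3 had 11 and 22 peaks, Srgap1 14 and 17 and Srgap2 4 and 12. The actin regulators Enah and Evl had 5 and 10, and 9 and 9. Dock1, an activator of Rac, had 32 and 26, the adaptor Nck2 9 and 3, and the microtubule-binding Clasp1 8 and 10. Nell2, the Robo3 ligand, had 23 and 29, and the netrin receptor Dcc, which Robo signalling can silence, had 43 and 32. These genes other than Srgap1 and Srgap2, which were added after their values were seen, are the 8 with the most peaks among the 16 that have a pair of overlapping peaks.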

How the data were processed

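ATRX ChIP-seq peak lists of 1 MICAL1-FL and 1 control library were used, grouped by sample title. The input library was not analysed here. The submitters' processing notes name MACS 1.4.2, Bowtie 1.3.0, ChIPseeker 1.26.2 and SAMtools 1.9 without saying what each did. The sources used here give neither the calling threshold nor the genome build. The largest authors' p, not corrected for multiple testing, was 0.0496 in the MICAL1-FL list and 0.0498 in the control list, just under 0.05. The deposited score is the whole part of 10 times the -log10 p. The fold (a ratio over background), -log10 p and -log10 q are those of the authors' peak caller, and the deposited summit offset gave summit positions. Read totals are unknown. Peaks were matched to RefSeq GRCm38.p6, since scaffold names fit that build and summits within 250 bp of RefSeq starts were 3.62 (MICAL1-FL) and 3.30 (control) times as dense as at 5 to 10 kb. Exons and introns were not told apart. Depth was solved from fold = (depth + 1)/(background + 1) and p as the Poisson chance of a higher depth. This is an inference, met within 0.001 of the -log10 p at 99.9% of peaks in both lists. Ratios and shares have 95% exact binomial (Clopper-Pearson) intervals for counting error only. The 6 genes, the pathway list and all rules were chosen with earlier results of these data known. All 6 genes were always named, with overlapping pairs and strongest peaks; of pathway genes, up to 8 with an overlapping pair by peak number, and Robo4. Python 3.11.15, numpy 2.4.6, pandas 2.3.3 and scipy 1.17.1 were used. Depth recovery, the 1 bp overlap and the counting of peaks per gene were tested on simulated data, and the other steps were not. Alternatives covered flanks, thresholds, summits, overlap rules, scaling and leaving out single genes.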

Additional observations from a re-analysis of the deposited data

How the results depend on the processing

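The excess of MICAL1-FL over control peaks over the 6 genes together kept its direction in every alternative that gave a value. These alternatives count or rescale largely the same peaks that chose the genes, so the kept direction is no separate support. The ratio, 1.36 as reported, was between 1.32 and 1.42 with any 1 gene left out, 1.36 with no flank, 1.37 with flanks of 20 kb and 1.36 with summits in the span. Without Robo2 it was 1.34 (0.993 to 1.82). With p of 0.01 or less it was 1.78, and with p of 0.001 or less 1.50 (0.630 to 3.73). Divided by the ratio of all peaks, of genes of 100 kb or more, of the flanking 1 Mb or of the surroundings with each peak counted once, scalings added after the values were seen, it was 1.45, 1.44, 1.49 and 1.52. At Slit2 the order turned with p of 0.01 or less (8 MICAL1-FL and 6 control peaks) and at Slit3 with p of 0.001 or less (4 and 6). The number of MICAL1-FL peaks was 15 with p of 0.001 or less and 0 with q of 0.05 or less. That of control peaks was 72 with p of 0.01 or less, 10 with p of 0.001 or less and 0 with q of 0.05 or less, where no ratio or share could be had. With p of 0.01 or less, 2.34% of MICAL1-FL peaks overlapped a control peak, and with p of 0.001 or less 6.67%. This share was 1.82% with an overlap of at least 50% of both peaks and 10.3% with peaks up to 1 kb apart. For control peaks the shares under these rules were 4.17%, 10%, 2.48% and 15.7%. Shares over the full lists were not taken under these rules, so these values have no background beside them. A stricter threshold or rule leaves fewer peaks by its construction. No paired analysis was possible because there was 1 library per condition. Peaks of 4 to 9 fragments limit what any single gene can show: a site listed in 1 library alone is not shown to be free of ATRX in the other.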

Other observations

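Robo1 and Robo2 are neighbours on chromosome 16, with 834 kb and no annotated protein-coding gene between their flanks. This interval held 42 MICAL1-FL and 34 control peaks, a ratio of 1.24 (0.767 to 2.00), or 50.3 and 40.7 peaks per Mb. Both densities were above those of Robo1 (36.9 and 26.2 per Mb) and Robo2 (37.7 and 26.8 per Mb). Robo2 also hosts Mir691, whose hairpin lay 13.2 kb from the nearest MICAL1-FL peak and 2.83 kb from the nearest control peak.

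Robo4 had 3 MICAL1-FL and 1 control peaks in its gene and flanks, of which 2 MICAL1-FL peaks and the control peak also count for Robo3.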
